A study of Mus musculus with 24 samples.

Results

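The genes described here make serotonin and build the secretory granule of enteroendocrine cells, the hormone-releasing cells scattered through the gut epithelium. They are Tph1, Ddc, Slc18a1, Chga, Chgb, Scg2, Scg3, Scg5, Pcsk1 and Pcsk1n. These 10 genes were taken by symbol from the array platform's annotation, without use of their values, out of 18193 genes measured, and all 10 were found. For Ddc and Slc18a1, which have several probe sets, the one with the highest mean over the 24 arrays stood for the gene, and the other 8 genes had 1 probe set each. Values are deposited log2 expression, on which a difference of 1 is a doubling, and levels of different genes are not compared with each other. RNA came from crypts, the proliferative pits of the small intestine, and from villi, its differentiated projections, of mice of the mixed strain C57BL/6;FVB aged 2 months. Every mouse, wild type included, had received an intraperitoneal injection of beta-napthoflavone (as the labels spell it) 7 days before harvest, so no group was untreated. The genotypes were WT (wild type), Rb (Rb-/-), TKO (E2f1-/-;E2f2-/-;E2f3-/-) and QKO (E2f1-/-;E2f2-/-;E2f3-/-;Rb-/-), each with 3 arrays of crypts and 3 of villi, giving 8 groups. The labels name neither the transgene or cell type behind the gene deletions nor the length of intestine taken.

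Serotonin is made from tryptophan in successive steps, the first by tryptophan hydroxylase and the next by aromatic amino acid decarboxylase, and a vesicular transporter then packs it into granules. Granins are acidic proteins that help granules form and are cut into peptides there, and prohormone convertases cut hormone precursors inside the same granules. In the gut, enterochromaffin cells make most of the body's serotonin, while granins and convertases are shared by many kinds of enteroendocrine cells. Rb, the retinoblastoma protein, binds E2f transcription factors and is known for restraining the cell cycle.

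Arrays of a group correlated at 0.979 to 0.994 over all probe sets, and no 2 arrays were identical. Rb1, the gene deleted in Rb and QKO, went against the labels on 2 arrays: the array labelled WT crypts 3 stood at 8.46 and the array labelled Rb crypts 2 at 10.25, against 10.31 and 10.59 on the other WT crypt arrays. In villi Rb1 lay between 10.70 and 10.93 in WT, 8.84 and 9.36 in Rb, 10.32 and 10.38 in TKO, and 8.28 and 8.77 in QKO. E2f1 overlapped between WT and TKO crypts (6.78 to 7.30 and 7.00 to 7.29), and whether the probe sets lie in the deleted exons is not known here. QKO crypts 2 and QKO villi 3 had array medians of 5.17 and 5.26, against 4.97 to 5.08 on the other 22 arrays. The poly-A control RNAs spiked in during labelling averaged 5.01 to 6.25 on the 12 WT and Rb arrays and 8.28 to 10.06 on the 12 TKO and QKO arrays, so E2f genotype and that difference in labelling cannot be told apart. From sex-linked transcripts, WT arrays and Rb crypt arrays were all female and QKO arrays all male, with 2 of 3 arrays male in Rb villi, TKO crypts and TKO villi. The labelled compartments were checked on markers, at an adjusted p under 0.05 (limma). Within WT, villi were higher than crypts for 8 of 10 measured enterocyte genes and lower for 5 of 5 measured Paneth cell genes. Of all genes 18.8% were higher and 18.6% lower. No label says whether the arrays of a group came from separate mice. Rb villi, TKO crypts and TKO villi held arrays of both sexes, so each of these groups did not come from a single mouse. The p-values measure the spread between the arrays, which in the other groups may be technical.

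The upstream sequences of several members share a cyclic AMP response element, the site bound by the CREB family, which is known from promoters of neuroendocrine genes. Promoter windows from RefSeq (mouse build GRCm38.p6), reaching 250 bases before to 50 after each start, were found for 9 of the 10 genes in 11 windows. The palindrome TGACGTCA stood in 3 of the 11 windows, those of Chgb, Scg2 and Pcsk1, against 1.79% of all 32851 windows. Its shorter form TGACG, which lies within the palindrome and was searched on both strands, stood in 8 of 11 windows and 7 genes, against 20.8% of all windows. The E2f-like motif TTTNNCGC, also searched on both strands, stood in none of the 11 windows and in 5.17% of all windows. A match describes these letters and is not evidence of binding. The 150 bases before the start are shown for the genes that carry the palindrome and for Chga and Tph1, the marker granin and the rate-limiting enzyme, with the matched letters in capitals.
Chgb, chr2:132781492-132781641, plus strand: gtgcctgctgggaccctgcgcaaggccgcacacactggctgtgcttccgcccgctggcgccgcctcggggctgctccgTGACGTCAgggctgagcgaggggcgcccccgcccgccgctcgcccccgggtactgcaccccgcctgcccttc
Scg2, chr1:79440027-79440176, minus strand: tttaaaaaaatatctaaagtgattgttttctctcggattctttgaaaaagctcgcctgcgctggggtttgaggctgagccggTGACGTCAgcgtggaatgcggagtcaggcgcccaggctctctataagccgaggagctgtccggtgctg
Pcsk1, chr13:75089707-75089856, plus strand: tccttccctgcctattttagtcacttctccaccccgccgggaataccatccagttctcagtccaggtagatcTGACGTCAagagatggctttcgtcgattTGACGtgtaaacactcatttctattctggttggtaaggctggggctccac
Chga, chr12:102554791-102554940, plus strand: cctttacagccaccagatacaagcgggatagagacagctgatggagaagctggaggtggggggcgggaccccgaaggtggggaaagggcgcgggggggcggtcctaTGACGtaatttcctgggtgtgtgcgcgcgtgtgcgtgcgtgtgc
Tph1, chr7:46667378-46667527, minus strand: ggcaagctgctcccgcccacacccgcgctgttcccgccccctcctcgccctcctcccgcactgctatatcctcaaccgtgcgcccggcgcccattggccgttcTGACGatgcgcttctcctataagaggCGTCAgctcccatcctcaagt
Counted back from the start, the palindrome lay at bases -72 to -65 in Chgb, -68 to -61 in Scg2 and -78 to -71 in Pcsk1. The capitals in Chga mark the short form at -44 to -40, and those in Tph1 mark it at -47 to -43 and, on the other strand, at -21 to -17. Tph1 also carries the short form at -248 to -244, upstream of the bases shown, and its window at another start carries the short form at -36 to -32.

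Across the 8 groups, QKO villi stood highest for 9 of the 10 genes by group mean, and only Ddc, whose highest group was WT villi, did not follow. For 8 of 10 genes all 3 QKO villus arrays lay above all other 21 arrays, a pattern found for 2.49% of all genes. The exceptions were Ddc and Scg5. The hybridization control probe sets ran the same way, at averages of 11.03 to 11.26 on QKO villus arrays and at most 10.86 on any other array. The part of that technical difference in these results was not tested.

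Tph1, tryptophan hydroxylase 1, catalyses the rate-limiting step of serotonin synthesis outside the brain. In crypts it measured 6.39, 6.87 and 5.88 on WT arrays 1, 2 and 3, 6.34, 6.53 and 5.82 on Rb arrays, 6.01, 5.89 and 6.44 on TKO arrays, and 7.83, 8.16 and 8.02 on QKO arrays. In villi it measured 6.95, 7.73 and 8.15 in WT, 6.43, 6.07 and 6.15 in Rb, 7.65, 6.58 and 6.60 in TKO, and 10.34, 9.74 and 10.49 in QKO. QKO arrays were the highest in each compartment, and no Rb villus array reached the lowest WT villus array. The order of group means ran from QKO villi (10.19 ± 0.40, SD, n = 3) through QKO crypts (8.003 ± 0.17), WT villi (7.61 ± 0.61) and TKO villi (6.94 ± 0.61) to the remaining 4 groups, which lay between 6.11 and 6.38. Below QKO villi every pair of neighbours in that order overlapped.

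Ddc, aromatic L-amino acid decarboxylase, turns 5-hydroxytryptophan into serotonin and is also expressed by absorptive enterocytes. In villi it measured 12.34, 12.33 and 12.53 in WT, 12.35, 11.56 and 11.92 in Rb, 11.61, 11.24 and 12.14 in TKO, and 11.67, 11.90 and 11.71 in QKO. WT villi were the highest group (SD 0.11, and 0.12 in QKO villi), and their arrays did not overlap with those of TKO or QKO villi. All 12 crypt arrays lay between 11.14 and 11.80, and crypt means between 11.46 and 11.64, which is less than the spread between replicates of TKO crypts (SD 0.32).

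Slc18a1, vesicular monoamine transporter 1, loads serotonin into granules. It measured 7.26, 7.43 and 6.64 in WT crypts, 6.80, 7.26 and 6.80 in Rb crypts, 8.01, 7.30 and 7.50 in TKO crypts, and 8.11, 8.14 and 8.01 in QKO crypts. In villi it measured 8.15, 8.15 and 8.29 in WT, 6.96, 7.27 and 7.19 in Rb, 8.40, 8.02 and 8.24 in TKO, and 9.01, 8.44 and 8.87 in QKO. Rb villi stayed at the level of the crypts of WT and Rb, whereas the villi of the other genotypes all lay above 8. The other 2 probe sets of Slc18a1 were dim (means of 4.51 and 2.96 over the 24 arrays, against 7.76) and neither was called between QKO and Rb villi, with log2 differences of 0.03 and 0.13 against 1.64 for the brightest. The other Ddc probe set (mean 4.45, against 11.73) was 0.69 ± 0.17 higher in QKO than in Rb villi (adjusted p = 0.00609), where the brightest differed by -0.18.

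**Figure D1:**
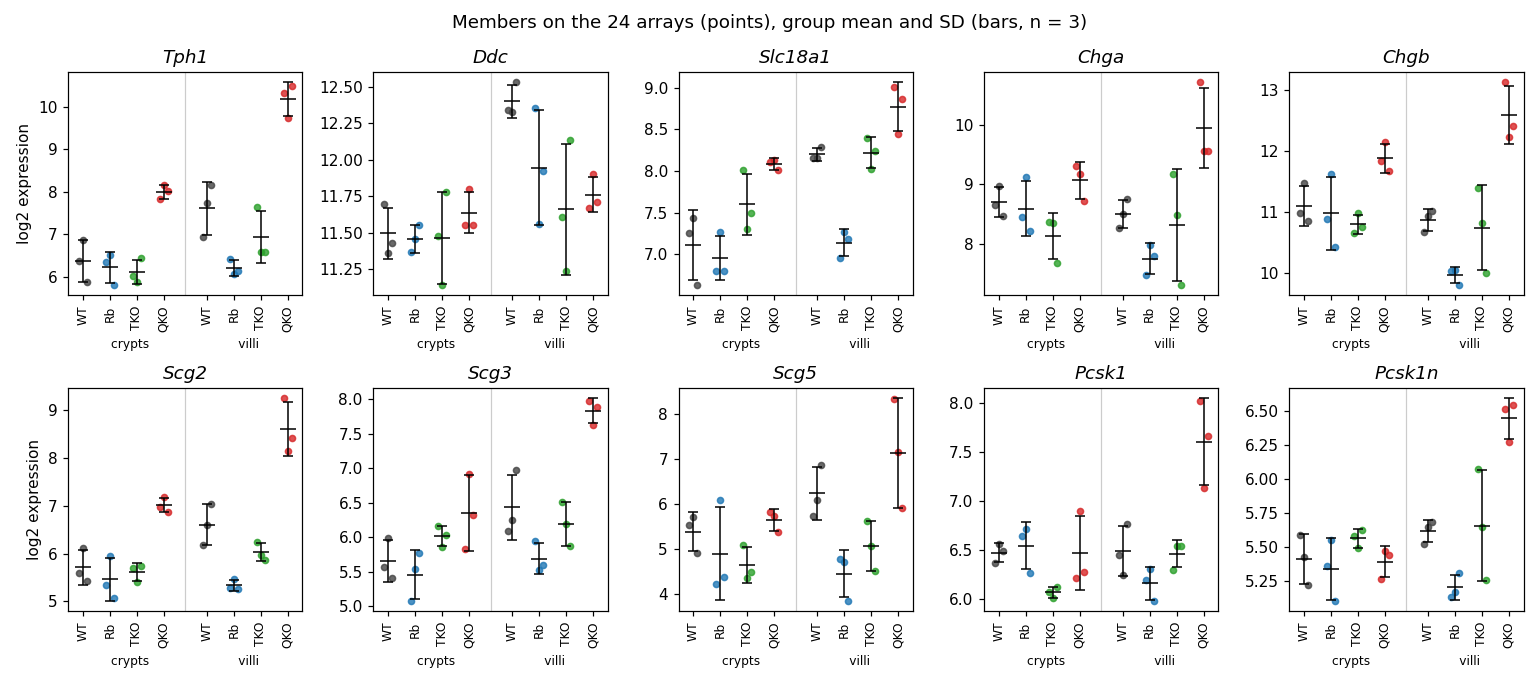
Log2 expression (vertical axes) of the 10 genes in the 8 groups, crypts on the left and villi on the right of each panel. Points are single arrays and bars the mean and SD of 3 arrays. QKO villi lie above all other arrays in 8 panels, and Ddc is highest in WT villi.

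Among the granins, Chga (chromogranin A), the standard marker of enteroendocrine cells, measured 8.27, 8.50 and 8.75 in WT villi, 7.47, 7.98 and 7.80 in Rb villi, 9.17, 8.49 and 7.31 in TKO villi, and 10.72, 9.56 and 9.56 in QKO villi. QKO villi 1 stood more than 1 unit above the other QKO villus arrays, and TKO villi ranged over more than 1 unit. Crypt arrays measured 8.65, 8.97 and 8.48 in WT, 8.45, 9.12 and 8.21 in Rb, 8.37, 8.35 and 7.68 in TKO and 9.31, 9.17 and 8.72 in QKO, and the arrays of WT, Rb and QKO crypts overlapped. Chgb (chromogranin B) measured 10.66, 10.93 and 11.01 in WT villi, 10.03, 10.04 and 9.80 in Rb villi, 11.40, 10.82 and 10.001 in TKO villi and 13.13, 12.22 and 12.41 in QKO villi. QKO crypts were its next highest group (11.88 ± 0.24), above all arrays of the other crypts, which ranged from 10.43 to 11.61.

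Scg2 (secretogranin II), the precursor of the peptide secretoneurin, measured 6.18, 6.59 and 7.03 in WT villi, 5.27, 5.47 and 5.27 in Rb villi, 6.25, 5.97 and 5.87 in TKO villi, and 9.24, 8.14 and 8.42 in QKO villi. In crypts the QKO arrays stood at 6.98, 7.18 and 6.87, above all 9 arrays of the other genotypes, the highest of which was 6.12. Scg3 (secretogranin III), which tethers chromogranin A to the granule membrane, measured 6.09, 6.24 and 6.97 in WT villi, 5.94, 5.52 and 5.60 in Rb villi, 6.51, 6.19 and 5.88 in TKO villi, and 7.98, 7.63 and 7.89 in QKO villi. Its QKO crypt arrays were spread over 5.82, 6.92 and 6.32, and the highest of these, QKO crypts 2, is one of the arrays with a raised median.

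Of the processing genes, Pcsk1, prohormone convertase 1/3, lay between 6.25 and 6.76 in WT villi, 5.98 and 6.30 in Rb villi and 6.30 and 6.54 in TKO villi, and at 8.02, 7.13 and 7.66 on the QKO villus arrays. Its 12 crypt arrays lay between 6.01 and 6.90, and QKO crypts (6.46 ± 0.38) and WT crypts (6.47 ± 0.10) had nearly the same mean. Pcsk1n (proSAAS), an inhibitor of that convertase, was likewise highest in QKO villi and flat in crypts: it measured 5.52 to 5.68 in WT villi, 5.13 to 5.31 in Rb villi, 5.25 to 6.07 in TKO villi, 6.27 to 6.55 in QKO villi, and 5.10 to 5.62 over all crypts. Scg5 (7B2), the chaperone of prohormone convertase 2, was spread widely within groups: it measured 5.73, 6.10 and 6.88 in WT villi, 4.79, 4.73 and 3.86 in Rb villi, 5.62, 5.07 and 4.53 in TKO villi, and 8.33, 7.16 and 5.91 in QKO villi. The QKO villus arrays of Scg5 thus overlapped those of WT.

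In WT mice, 5 of the 10 genes were higher in villi than in crypts and none lower, at an adjusted p under 0.05 (limma, Benjamini-Hochberg over 18193 genes), while 18.8% of all genes were higher. Slc18a1 rose by 1.09 ± 0.20 (SE, adjusted p = 0.00022), Tph1 by 1.23 ± 0.31 (adjusted p = 0.00372) and Ddc by 0.90 ± 0.20 (adjusted p = 0.00105). Scg2 rose by 0.89 ± 0.26 and Scg3 by 0.78 ± 0.26 (adjusted p = 0.01 and 0.0219). Chga and Chgb differed by -0.19 and -0.23, with adjusted p above the threshold. The median of the 10 genes was 0.81 and that of all genes 0.08. Scg2 lost its call without WT crypts 3 (0.74, adjusted p = 0.0533) or WT villi 3 (0.67, adjusted p = 0.0729), and Scg3 lost it without WT crypts 1, WT crypts 3, WT villi 3, or both arrays that went against their Rb1 label. Without those 2 arrays 4 genes were called, and Tph1 stood at 0.98 (adjusted p = 0.0292).

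In Rb mice 1 of the 10 genes was called: Chgb was lower in villi than in crypts by 1.01 ± 0.30 (log2 difference -1.01, adjusted p = 0.0231), against 9.65% of all genes lower. Tph1 differed by -0.01 ± 0.31 (95% interval -0.67 to 0.64). The Chgb call ended without Rb crypts 1, Rb crypts 2, Rb villi 1 or Rb villi 3, with sex as a covariate, and without both arrays that went against their Rb1 label (-0.69, adjusted p = 0.182). In TKO mice 1 gene was called, against 6.43% of all genes higher: Slc18a1 was higher in villi by 0.62 ± 0.20 (adjusted p = 0.0422), a call that ended without replicate 1 or 3 of TKO villi or replicate 2 or 3 of TKO crypts, and with its probe sets averaged.

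In QKO mice 7 of the 10 genes were higher in villi and none lower, against 13.5% of all genes higher. Tph1 rose by 2.19 ± 0.31 (adjusted p = 2.53e-05, 4.55-fold), Scg2 by 1.59 ± 0.26 (adjusted p = 8.81e-05), Scg3 by 1.48 ± 0.26 (adjusted p = 0.000169) and Scg5 by 1.49 ± 0.50 (adjusted p = 0.0259). Pcsk1 rose by 1.14 ± 0.20 (adjusted p = 0.000176), Pcsk1n by 1.06 ± 0.16 (adjusted p = 4.61e-05) and Slc18a1 by 0.69 ± 0.20 (adjusted p = 0.0119). Ddc differed by 0.12 ± 0.20. With the replicate number as a block, which crypts and villi of QKO shared by their values, 9 genes were called, with Chga and Chgb in addition. The Slc18a1 call ended without QKO villi 1 (and with array weights or without QKO crypts 2 and QKO villi 3), and the Scg5 call without QKO villi 1, QKO villi 2, QKO crypts 2 or QKO crypts 3.

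**Figure D2:**
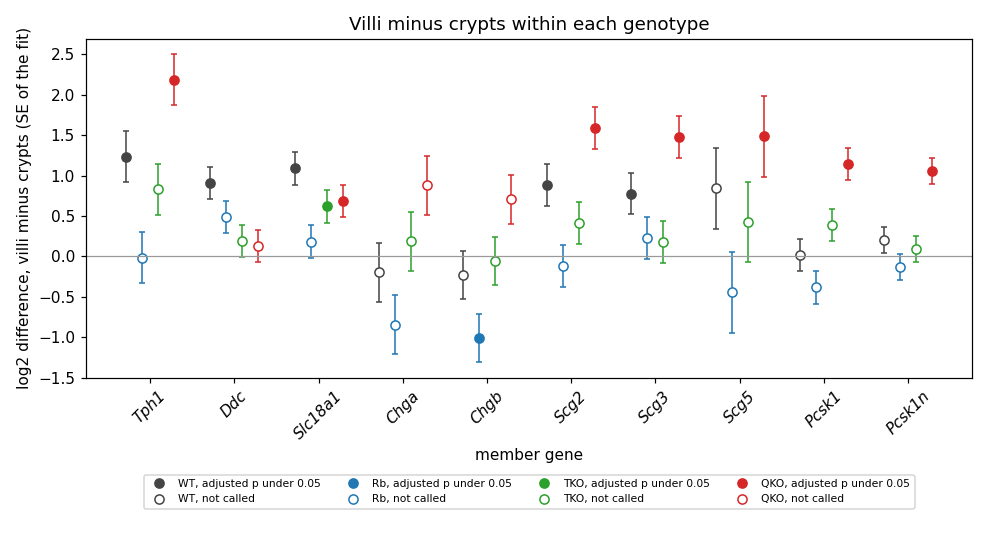
Log2 difference between villi and crypts (vertical axis, with the SE of the fit) for the 10 genes in each genotype, 3 arrays against 3. Filled points passed the adjusted p of 0.05 and open points did not. QKO has 7 filled points and WT 5, all above 0. TKO has 1 (Slc18a1), and the 1 filled point of Rb (Chgb) lies below 0.

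Whether the mutant genotypes changed these genes was then asked in each compartment, with the same WT arrays serving as reference for all genotypes. In crypts, 0 of the 10 genes differed between Rb and WT, with 0 at an unadjusted p under 0.05, and 0% of all genes were called. These groups held the 2 arrays that went against their Rb1 label, so this comparison cannot show whether loss of Rb changed the genes in crypts. Without those 2 arrays the count was also 0, with 2 arrays left in each group. With the groups as labelled, the 95% intervals for Rb minus WT crypts ran from -0.80 to 0.50 for Tph1 and from -0.87 to 0.65 for Chga. In villi 5 of 10 were lower in Rb than in WT and none higher, against 6.19% of all genes lower. Tph1 fell by 1.40 ± 0.31 (adjusted p = 0.0036, 2.63-fold), Scg2 by 1.26 ± 0.26 (adjusted p = 0.00171), Slc18a1 by 1.06 ± 0.20 (adjusted p = 0.000855), Scg5 by 1.78 ± 0.50 (adjusted p = 0.0185) and Chgb by 0.91 ± 0.30 (adjusted p = 0.0443). All 10 genes had a lower mean in Rb villi (median -0.83, against -0.08 for all genes), and in 8 the arrays did not overlap, against 24.9% of all genes lower without overlap. The Chgb call ended without any 1 of the 6 WT or Rb villus arrays, and the Scg5 call without WT villi 3 or Rb villi 3 (-1.46 and -1.47). With sex as a covariate 3 of the 5 calls remained, Tph1, Slc18a1 and Scg2.

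The difference of the Rb effect between villi and crypts was tested directly. None of the 10 genes passed (limma, 3 at an unadjusted p under 0.05), against 5.22% of all genes called. The villus calls are thus not shown to be particular to villi. The crypt side of this test held the arrays that went against their Rb1 label, so it cannot settle that question. Its count changed with the processing, as given in the closing section. In TKO crypts 0 of 10 genes were called against WT (limma, 1 at an unadjusted p under 0.05), while 4.73% of all genes were. In TKO villi 1 gene was called, against 3.57% of all genes lower: Ddc fell by 0.74 ± 0.20 (adjusted p = 0.019), and this call ended without WT villi 3, TKO villi 1 or TKO villi 2. Tph1 differed by -0.67 ± 0.31 (95% interval -1.32 to -0.02) without passing the adjusted threshold. The TKO effect did not differ between villi and crypts for any of the 10 by the adjusted test (1 at an unadjusted p under 0.05), against 3.43% of all genes called.

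QKO and WT arrays lie on different sides of the poly-A control difference and differ in sex. In crypts 3 of 10 genes were higher in QKO than in WT, against 10.3% of all genes higher: Tph1 rose by 1.62 ± 0.31 (adjusted p = 0.00174), Scg2 by 1.30 ± 0.26 (adjusted p = 0.0023) and Slc18a1 by 0.98 ± 0.20 (adjusted p = 0.003). The share of all called genes that were higher depended on scaling: between QKO and WT villi it was 68.9% as deposited, 46.5% after quantile normalization and 23.5% after median centring. The crypt calls held without the 2 arrays that went against their Rb1 label (Tph1 at 1.37, adjusted p = 0.0149) and without QKO crypts 2 and QKO villi 3. In villi 7 of 10 were higher, against 11.6% of all genes, and Ddc was lower, against 5.21% lower. Tph1 rose by 2.58 ± 0.31 (adjusted p = 1.48e-05, 5.97-fold), Scg2 by 2.00 ± 0.26 (adjusted p = 2.85e-05) and Chgb by 1.72 ± 0.30 (adjusted p = 0.000522). Chga rose by 1.44 ± 0.36 (adjusted p = 0.00954), Scg3 by 1.40 ± 0.26 (adjusted p = 0.000914), Pcsk1 by 1.12 ± 0.20 (adjusted p = 0.000691) and Pcsk1n by 0.83 ± 0.16 (adjusted p = 0.00135). Slc18a1 (0.57 ± 0.20) and Scg5 (0.89 ± 0.50) did not pass. Ddc fell by 0.64 ± 0.20 (adjusted p = 0.0307), and its call ended without any 1 of the 3 WT villus arrays, without QKO villi 1 or QKO villi 3, and with its probe sets averaged, weights on the arrays or sex as a covariate. The Chga call ended without QKO villi 1 (1.05, adjusted p = 0.06). With sex as a covariate 8 genes were higher, Slc18a1 in addition.

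**Figure D3:**
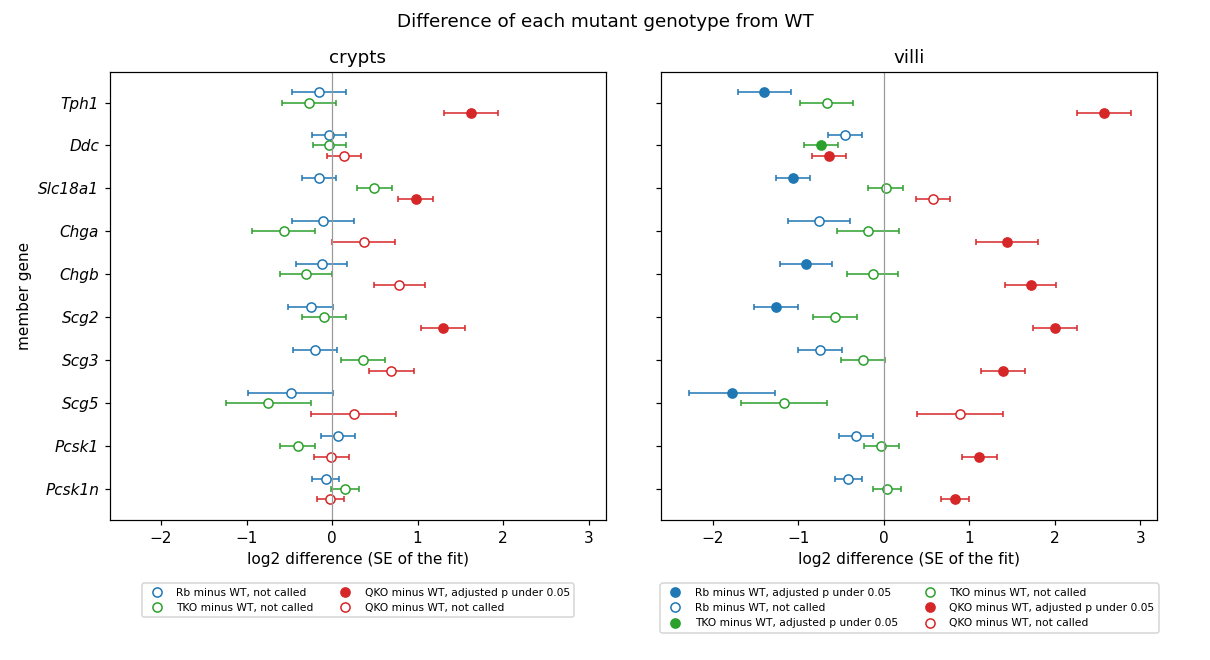
Log2 difference from WT (horizontal axis, with the SE of the fit) for the 10 genes in Rb, TKO and QKO, in crypts on the left and villi on the right, 3 arrays against 3. Filled points passed the adjusted p of 0.05. In villi 7 QKO points lie filled on the right of 0 and 5 Rb points filled on the left.

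A contrast added after these values had been seen asked whether the QKO effect was larger in villi than in crypts. For 2 of the 10 genes it was, Pcsk1 by 1.13 ± 0.28 (adjusted p = 0.0244) and Pcsk1n by 0.85 ± 0.23 (adjusted p = 0.0328), against 2.87% of all genes higher. For Tph1 the effects differed by 0.96 ± 0.44 (adjusted p = 0.223), so a larger change in villi was not shown for it. Both calls rest on single arrays: Pcsk1 lost its call without any of 6 single arrays, namely WT crypts 2, WT villi 1, WT villi 2, QKO villi 1, QKO crypts 1 or QKO crypts 3, and Pcsk1n lost its call without WT crypts 1, WT crypts 2, QKO villi 1, QKO villi 3, QKO crypts 1 or any of the 3 WT villus arrays.

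QKO and TKO share the E2f deletions and differ in Rb. Their poly-A controls were both high, but in villi stood at 9.64 to 10.06 in QKO and 8.96 to 9.15 in TKO. Hybridization controls in villi differed as well (11.03 to 11.26 in QKO and 10.50 to 10.71 in TKO). QKO arrays were all male, and TKO arrays were male for 2 of 3 in each compartment. The part of these differences was not tested. In crypts 2 of 10 genes were higher in QKO than in TKO, against 1.42% of all genes: Tph1 by 1.89 ± 0.31 (adjusted p = 0.00274) and Scg2 by 1.40 ± 0.26 (adjusted p = 0.00762), the latter losing its call without QKO crypts 2 (1.31, adjusted p = 0.0506). In villi 8 of 10 were higher and none lower, against 5.51% of all genes higher. Tph1 rose by 3.25 ± 0.31 (adjusted p = 3.76e-06, 9.50-fold), Scg2 by 2.57 ± 0.26 (adjusted p = 4.59e-06), Chgb by 1.85 ± 0.30 (adjusted p = 0.000796) and Scg3 by 1.64 ± 0.26 (adjusted p = 0.000662). Chga rose by 1.63, Scg5 by 2.06, Pcsk1 by 1.15 and Pcsk1n by 0.79. Fitted on these 6 villus arrays alone, 3 genes passed, Tph1, Scg2 and Scg3. Scg5 lost its call without TKO villi 2, TKO villi 3 or QKO villi 1, and Chga without TKO villi 3.

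QKO and Rb share the loss of Rb, and differ in the E2f genes, in the poly-A control level and in the share of male arrays. In crypts 5 of 10 genes were higher in QKO than in Rb, against 13.4% of all genes: Tph1 by 1.77 ± 0.31 (adjusted p = 0.000598), Scg2 by 1.55 ± 0.26 (adjusted p = 0.000399) and Slc18a1 by 1.13 ± 0.20 (adjusted p = 0.000664), with Chgb (0.91) and Scg3 (0.89) closer to the threshold. Chgb lost its call without Rb crypts 1, Rb crypts 3, QKO crypts 1 or QKO crypts 2, and Scg3 without Rb crypts 1 or QKO crypts 2. All 5 calls held without the 2 arrays that went against their Rb1 label. In villi 9 of 10 were higher, against 14.2% of all genes, and Ddc differed by -0.18 ± 0.20. Tph1 rose by 3.98 ± 0.31 (adjusted p = 7.1e-08, 15.7-fold) and Scg2 by 3.26 ± 0.26 (adjusted p = 7.1e-08, 9.60-fold). The others rose by 1.24 (Pcsk1n) to 2.67 (Scg5), and all 9 calls held when any 1 array of these groups was left out.

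The comparison the 4 genotypes allow is whether losing Rb acted alike with and without the E2f genes. In villi, 5 of the 10 genes were lower in Rb than in WT, where the E2f genes are present, and 8 were higher in QKO than in TKO, where they are absent. The difference between these 2 changes passed the test for 9 of 10 genes, against 8.91% of all genes higher. It was 4.65 ± 0.44 for Tph1 (adjusted p = 9.53e-07), 3.83 ± 0.37 for Scg2 (adjusted p = 9.53e-07), 2.76 ± 0.42 for Chgb (adjusted p = 0.000121) and 2.38 ± 0.52 for Chga (adjusted p = 0.00314). For Ddc the changes differed by 0.56 ± 0.28 without passing. All 9 calls held when any 1 of the 12 villus arrays was left out and with sex as a covariate. The median difference of the 10 genes was 2.39, against 0.12 for all genes. The QKO villus arrays in this test had hybridization controls of 11.03 to 11.26, against at most 10.86 on any other array. They averaged 8.35 to 8.90 for 6 measured markers of proximal intestine, against 6.62 to 7.18 on other villus arrays. The part of either in this difference was not tested.

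The 10 genes varied together, apart from Ddc. Over the 24 arrays, the 36 pairs of the other 9 genes correlated at 0.58 to 0.98 (median Pearson r 0.79), and at 0.10 to 0.95 (median 0.54) over the 21 arrays without QKO villi. Taken as deviations from group means, so that differences between groups drop out, the pairs correlated at 0.18 to 0.88 (median 0.51), with all genes sharing the arrays' RNA samples and scaling. Scg2 followed the mean of the other 9 genes most closely (0.98, and 0.91 for deviations). The 9 pairs with Ddc correlated at -0.23 to 0.29, and Ddc correlated at 0.67 with the mean of the 10 measured enterocyte genes, where the other 9 genes correlated at -0.07 (Chgb) to 0.58 (Slc18a1), with Scg3 at 0.51 and Tph1 at 0.44. QKO villi 1 was the highest of all arrays for 7 of the 10 genes, namely Slc18a1, Chga, Chgb, Scg2, Scg3, Scg5 and Pcsk1.

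Outside the 10 genes, the transcripts most like Tph1 over the 24 arrays were Cck (cholecystokinin, r 0.96), Neurod1 (an enteroendocrine transcription factor, 0.95), Rbp4 (0.95), Gpx3 (0.92) and Ghrl (ghrelin, 0.91). Without QKO villi these correlations were 0.88, 0.87, 0.87, 0.83 and 0.80. Chgb was most like Cpe (carboxypeptidase E, 0.93), Neurod1 (0.90), Prnp (0.90), Rbp4 (0.89) and Ghrl (0.89). Chga was most like Map2k5 (0.89), Sst (somatostatin, 0.86), Ppme1 (0.86), Neurod1 (0.85) and Cpe (0.85). These are rankings among genes with a mean above the median of all gene means, given as description.

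Of 21 measured genes of the wider granule machinery, 10 were higher and none lower in QKO than in WT villi (median 0.63, against 0.03 for all genes), where 11.6% of all genes were higher. The other 11 did not pass. Against Rb villi 13 were higher and 1 lower, where 14.2% of all genes were higher and 8.02% lower. Cpe, which trims cut hormone precursors, rose by 2.39 ± 0.29 against WT villi (adjusted p = 1.56e-05), from a mean of 8.37 to 10.76. Snap25, part of the membrane fusion complex, rose by 1.79 ± 0.21 (adjusted p = 1.06e-05), Pam, which amidates peptides, by 1.15 ± 0.19 (adjusted p = 0.00028) and Vgf, a granin-like precursor, by 1.01 ± 0.19 (adjusted p = 0.000916). Between Rb and WT villi 3 were lower, Resp18 (-1.07), Snap25 (-0.75) and Ptprn (-0.44), and Sytl4 was higher (0.53), where 6.19% of all genes were lower and 8.59% higher. In crypts 6 were higher and 1 lower in QKO than in WT, led by Rab3c (1.76 ± 0.23, adjusted p = 5.03e-05). There 10.3% of all genes were higher and 3.06% lower.

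Genes that handle serotonin beyond the 10 were read next. Of 17 measured genes of cofactor supply, transport, breakdown and reception, none was higher and 3 were lower in QKO than in WT villi (median -0.0042, against 0.03 for all genes), where 11.6% of all genes were higher and 5.21% lower. The 3 were Maoa, which oxidises serotonin (-0.85 ± 0.13, adjusted p = 0.000124), Slc6a4, the serotonin uptake transporter of the epithelium (-0.95 ± 0.26, adjusted p = 0.0135), and Maob, which oxidises other amines (-0.98 ± 0.30, adjusted p = 0.0277). Maoa was lower in QKO crypts as well (-0.47 ± 0.13), where Slc18a2, the other vesicular monoamine transporter, was higher (0.66 ± 0.20, adjusted p = 0.0289). Gch1, which makes the cofactor of tryptophan hydroxylase, was higher in villi than in crypts of WT (1.82 ± 0.41), Rb (1.35 ± 0.41) and QKO (1.73 ± 0.41). Other genes of the list went the other way. Spr was lower in villi of WT (-0.58 ± 0.12) and Rb (-0.77 ± 0.12), and Qdpr of TKO (-0.48 ± 0.15) and QKO (-0.74 ± 0.15). Slc18a2 (-1.08 ± 0.20) and Htr4 (-1.57 ± 0.36) were lower in villi of QKO. Maoa was higher in villi of WT (0.52 ± 0.13) and TKO (0.44 ± 0.13), and Aanat of WT (0.39 ± 0.11). Between Rb and WT villi none of the 17 passed the adjusted threshold (limma), where 14.8% of all genes did. Against Rb villi, QKO villi had 1 of the 17 higher, Dnajc12, a co-chaperone of the aromatic amino acid hydroxylases (1.03 ± 0.28, adjusted p = 0.0121), and 2 lower. There 14.2% of all genes were higher and 8.02% lower. Dnajc12 also passed for the difference between the Rb changes with and without the E2f genes in villi (1.37 ± 0.40, adjusted p = 0.0236).

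Of 11 hormone genes, 6 were higher, none was lower and 5 did not pass in QKO against WT villi (median 1.21, against 0.03 for all genes), where 11.6% of all genes were higher. The 6 included Sct (secretin, 1.95 ± 0.21, adjusted p = 3.09e-06), Cck (1.94 ± 0.33, adjusted p = 0.000443), Ghrl (1.96 ± 0.35, adjusted p = 0.00063) and Pyy (peptide YY, 1.78 ± 0.35, adjusted p = 0.00137). In Rb villi 5 of the 11 were lower than in WT and none higher (median -1.27, against -0.08 for all genes), where 6.19% of all genes were lower, among them Ghrl (-1.83 ± 0.35), Gip (-1.76 ± 0.34), Cck (-1.58 ± 0.33) and Sst (-1.79 ± 0.38). Of 11 measured enteroendocrine transcription factors, 4 were higher in QKO than in WT villi, where 11.6% of all genes were: Neurod1 (1.84 ± 0.29, adjusted p = 0.000199), Insm1 (2.13 ± 0.35, adjusted p = 0.000317), Isl1 (1.33 ± 0.33, adjusted p = 0.00811) and Lmx1a (0.59 ± 0.17, adjusted p = 0.0216). None of the 11 factors was called between Rb and WT villi, where 14.8% of all genes were. Neurog3, the factor of enteroendocrine progenitors, was lower in villi than in crypts in WT (-1.53 ± 0.38), Rb (-1.27 ± 0.38) and QKO (-1.77 ± 0.38). In these bulk samples, more or fewer enteroendocrine cells and more or less RNA per cell cannot be told apart.

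**Figure D4:**
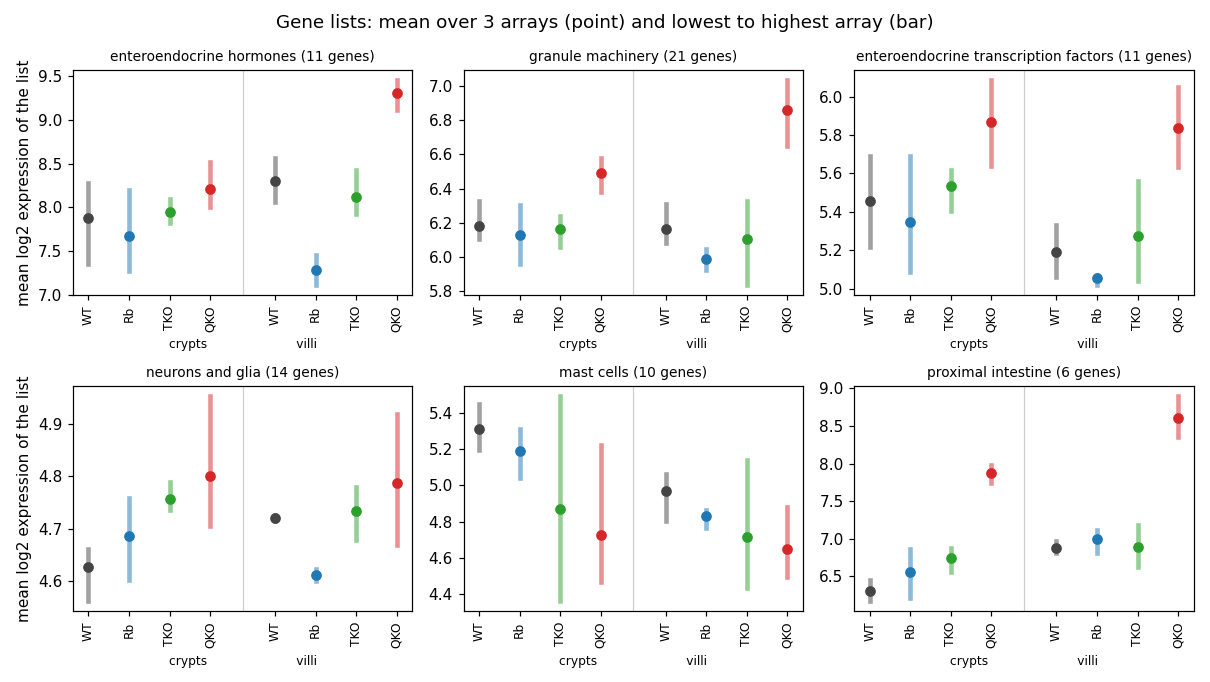
Mean log2 expression (vertical axes) of 6 gene lists in the 8 groups, crypts on the left and villi on the right, where points are means over 3 arrays and bars run from the lowest to the highest array. The hormone and granule lists are highest in QKO villi. The list of proximal intestine genes is highest in QKO villi (8.35 to 8.90) and next highest in QKO crypts.

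Other cells also contain granins or serotonin, and their markers were read beside these results. Over all genes, 11.6% were higher and 5.21% lower in QKO than in WT villi, and 10.3% were higher in QKO than in WT crypts. The list of 14 measured neuronal and glial genes averaged between 4.56 and 4.95 on every array, and in QKO against WT villi 1 was higher, Prph (means 5.56 and 5.14), and 2 were lower, Elavl3 and Nos1. Of 10 mast cell genes none was called between QKO and WT villi, and the list averaged 4.50 to 4.88 in QKO and 4.80 to 5.06 in WT villi. Of 4 measured islet genes only Iapp was higher in QKO than in WT villi (means 8.19 and 7.14), while Ins2, an insulin gene, stood at 6.52 and 6.59. Pancreatic acinar genes were higher in QKO than in WT crypts for 6 of 6 measured, with array means of 5.52 to 8.98 in QKO crypts and at most 5.54 on any other array. Of 10 enterocyte genes 1 was lower and none higher in QKO than in WT villi. Of 8 goblet cell genes 3 were lower and none higher in QKO than in WT villi. None of the 8 was called between Rb and WT villi, where 14.8% of all genes were. T cell genes were higher in QKO than in WT villi for 1 of 8 measured (Cd3e) and stromal genes for 1 of 10 (Vim), with array means of 8.67 to 9.57 against 7.996 to 8.29 for the T cell list and 5.60 to 6.85 against 5.29 to 5.48 for the stromal list. The part of these cells in the results was not tested.

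Some markers of position along the intestine differed in QKO. Of 6 genes listed as markers of proximal intestine, 3 did not pass and 3 were higher in QKO than in WT villi. Over all genes 11.6% were higher. The 3 were Pdx1 (mean 8.47 against 6.02), Slc40a1 (12.28 against 8.16) and Cybrd1 (8.52 against 5.31), and these were named after their values were seen. The list averaged 8.35 to 8.90 on QKO villus arrays and 6.62 to 7.18 on other villus arrays, and 7.74 to 7.98 against 6.17 to 6.88 in crypts. Of 4 measured distal genes, 1, Guca2a, was lower in QKO than in WT villi, and Fabp6 and Guca2a in QKO than in WT crypts. In these comparisons 5.21% and 3.06% of all genes were lower. Between Rb and WT villi none of the 6 proximal genes was called, where 14.8% of all genes were. The part of intestinal position in the QKO results was not tested. The poly-A control mean was 9.64 to 10.06 on QKO villus arrays and 8.96 to 9.15 on TKO villus arrays, and its part in the comparison of these groups was not tested either.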

How the data were processed

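Gene expression was measured on 24 Affymetrix mouse arrays from 3 ug total RNA each, per the labels' protocols. The authors deposited log2 values of 45101 probe sets in the series matrix, and these were used as deposited. Their range (2.29 to 14.9) shows the log2 scale, and the summary and normalization method was not given in the sources used here. The number of arrays limits the precision.

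By the platform annotation 34945 probe sets had 1 gene, 932 several and 9160 none, and 64 were controls. Symbols of 34741 were updated through the Entrez identifier to RefSeq and 204 kept. Each of 18193 genes was read by its probe set with the highest mean. Groups were taken from the sample titles and source names, and replicate numbers from the titles.

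Group means were fitted over all 24 arrays with limma 3.58.1 in R 4.3.3 (lmFit, eBayes with an intensity trend, 16 residual and 4.86 prior degrees of freedom), p-values were adjusted by Benjamini-Hochberg over all genes, and genes were called at 0.05. Single-gene p-values in the text are from this fit. The fit was tested on simulated data first. Tables and figures were made with Python 3.11.15, pandas 2.3.3, numpy 2.4.6 and matplotlib 3.10.9. The members, gene lists and tests were chosen with earlier results of these data known. The text names all members, up to 4 called genes with the smallest p from each of 4 lists (serotonin handling, granule machinery, hormones, transcription factors), and the 5 genes most like Chga, Chgb and Tph1. Markers named outside this rule were picked after their values were seen. The results of the tuft, B and plasma cell lists are given in the closing section.

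Crypts and villi of the same number deviated together from their group means in TKO (r 0.49 to 0.59) and QKO (0.23 to 0.50), each above 0.1, and not in WT (-0.03 to 0.03) or Rb (-0.21 to 0.01). That pairing comes from the values, as the labels do not state it. Alternatives were quantile normalization, median centring, no trend, a filter on dim genes at 6.39, other uses of probe sets, only the groups compared, array weights, a replicate block, sex as a covariate, and leaving out arrays.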

Additional observations from a re-analysis of the deposited data

Results flagged for a closer look

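For 9 of the 10 genes, the change that goes with loss of Rb in villi differed between mice with and without the E2f genes, by a test of the difference itself (limma, QKO minus TKO against Rb minus WT). The log2 difference of the changes was 4.65 for Tph1, 1.61 for Slc18a1, 2.38 for Chga, 2.76 for Chgb, 3.83 for Scg2, 2.39 for Scg3, 3.83 for Scg5, 1.47 for Pcsk1 and 1.21 for Pcsk1n, against a median of 0.12 over all genes. QKO villus arrays also stood apart in hybridization controls and in markers of proximal intestine, and the part of either was not tested. For Pcsk1 and Pcsk1n, the change from WT to QKO was larger in villi than in crypts, by 1.13 and 0.85. That contrast was added after the values were seen.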

How the results depend on the processing

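Of 66 calls of a gene in a comparison, 45 held under every alternative run, and none reversed its direction. Calls were lost in 11 cases when only the groups compared were fitted, in 6 with sex as a covariate, in 3 with probe sets averaged, in 2 each under quantile normalization, with every probe set tested and with array weights, in 1 under median centring, and in none without the intensity trend. Without some single array 18 calls were lost. The causes were not tested unless stated.

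The filter on dim genes left 6 of the 10 genes, so by construction the counts of called genes fell to 3 for villi against crypts in WT and in QKO, 3 for Rb against WT villi, 3 and 5 for QKO against Rb in crypts and villi, 1 and 4 for QKO against TKO in crypts and villi, 5 for the Rb change with and without E2f, and 1 for the added QKO contrast, while it gave 2 for villi against crypts in TKO and 1 for the Rb change in villi against crypts. For villi against crypts in Rb (1 as reported) the count was 4 with array weights, 3 with the replicate block, and 0 with sex as a covariate or without the 2 arrays that went against their Rb1 label. In TKO (1) it was 2 under quantile normalization and 0 with probe sets averaged, with every probe set tested or with only the groups compared. With only the groups compared it was 8 for Rb against WT villi (5), 0 for TKO against WT villi (1), 3 for QKO against Rb crypts (5) and 3 for QKO against TKO villi (8). With sex as a covariate it was 3 for Rb against WT villi and 3 for QKO against Rb crypts. Without QKO crypts 2 and QKO villi 3 it was 3 for QKO against Rb crypts, 1 for QKO against TKO crypts (2) and 1 for the added QKO contrast (2). For the Rb change in villi against crypts (0) it was 1 under quantile normalization, median centring and the replicate block, and 3 with array weights. The block ended none of the 66 calls. Between villi and crypts it paired arrays of the same number in every genotype, although WT and Rb arrays did not pair by their values. In Rb, crypts 1 and 3 read as female and villi 1 and 3 as male, so the block is no check there.

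Leaving out each array in turn gave 3 to 5 calls for villi against crypts in WT, 0 to 2 in Rb, 0 to 1 in TKO and 5 to 7 in QKO. It gave 0 for Rb and for TKO against WT crypts, 3 to 5 for Rb against WT villi, 0 to 1 for TKO against WT villi, 3 to 4 and 6 to 9 for QKO against WT in crypts and villi, 3 to 5 and 9 for QKO against Rb, and 1 to 2 and 6 to 8 for QKO against TKO. It gave 0 to 1 for the Rb and for the TKO change in villi against crypts, 9 to 10 for the Rb change with and without E2f, and 0 to 2 for the added contrast. Where a group kept 2 arrays its spread was taken from the common fit.

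Median centring shifted the median of all genes by -0.12 to -0.21 in the comparisons of QKO with another genotype within crypts or within villi, by -0.12 for the TKO change in villi against crypts and by 0.15 between WT villi and crypts, and quantile normalization shifted it by -0.10 between QKO and Rb villi and by -0.11 for the Rb change with and without E2f. The share of all called genes that were higher moved from 78.0% as deposited to 50.8% under quantile normalization and 41.2% under centring for QKO against Rb crypts, from 63.9% to 47.0% and 34.5% in villi, from 88.7% to 58.5% and 37.5% for QKO against TKO crypts, from 82.6% to 58.1% and 52.1% in villi, and from 77.1% to 51.1% and 49.4% for QKO against WT crypts. Under centring it moved from 50.2% to 70.0% for villi against crypts in WT, from 44.1% to 59.0% in Rb, and from 63.5% to 38.0% for TKO against WT villi. The other sets that moved were the Rb change in villi against crypts (78.8% to 58.4%), the TKO change (78.5% to 47.0%), the added contrast (52.8% to 34.4%) and the Rb change with and without E2f (57.7% to 47.1%). With 3 arrays a group, differences near the threshold are decided by single arrays, and levels of the dimmest genes lie close to the array medians.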

Other observations

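Several genes outside the lists led by likeness to Tph1, Chga or Chgb without being hormone or granule genes: Rbp4, Gpx3, Prnp, Map2k5 and Ppme1, whose correlations with Tph1, Chga or Chgb lay between 0.86 and 0.95 over the 24 arrays. Of 6 tuft cell genes none was called between QKO and WT villi (median 0.04), and Dclk1 was higher in Rb than in WT villi. Of 5 measured B and plasma cell genes, Cd79b was higher in QKO than in WT villi, and Cd79a and Ms4a1 were lower in QKO than in WT crypts. Of 5 measured Paneth cell genes, Pla2g2a was lower in QKO than in WT villi, and Ang4 and Pla2g2a in crypts. In QKO crypts 4 of 8 measured T cell genes were lower than in WT crypts. Over all genes, 3.06% were lower in QKO than in WT crypts. In QKO against WT villi 11.6% of all genes were higher and 5.21% lower. In Rb against WT villi 8.59% of all genes were higher.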
